A study of Mus musculus with 6 samples.

Results

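Schwann cells wrap the axons of peripheral nerves, and the small intramuscular branches of those nerves run through every skeletal muscle. A whole-muscle RNA extract therefore carries a little Schwann cell RNA. The genes described here are 8 Schwann cell and myelin genes chosen by symbol: Mbp, Pmp22, Mag, Cnp, Mal, Prx, S100b and Egr2. They were taken as every probe that the annotation of an Illumina mouse bead array assigned to 1 of those symbols. Of the 46632 probes on the array, 14 carried such a symbol and covered 7 of the 8 genes. No probe was matched to Prx, which encodes periaxin, and its expression was not analysed here. Each array gives every probe a detection p, the chance of so bright a signal from background alone. Probes with a detection p under 0.05 on 3 or more arrays were retained. This kept 11 of the 14 probes, covering 6 genes, out of 19563 retained probes in all.

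RNA came from vastus lateralis, a thigh muscle of the quadriceps, with 1 array per mouse. Of the 6 mice, 3 overexpressed FRG1, FSHD region gene 1 (Sample871, Sample873 and Sample874), and the controls were 3 wild type (WT) mice (Sample872, Sample906 and Sample923). All 6 were females of the C57Bl/6J strain aged 4 weeks. The labels do not name the promoter that drives the transgene, the species of its sequence or the line, and they do not say how the mice were bred, so a p-value here reflects no more than the scatter among 6 arrays. The gene lies beside the repeat array whose shortening causes facioscapulohumeral muscular dystrophy (FSHD), and the comparison asks which muscle transcripts differ when it is in excess.

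The array's single Frg1 probe was above background on 0 of 6 arrays, with a raw signal of 40 to 46.1 intensity units in FRG1 mice and 38 to 46.5 in WT mice, which leaves the genotype labels unchecked. Across the whole array, the summed raw signal lay between 11232852 and 13062182 intensity units in FRG1 mice and between 10537335 and 12759000 in WT mice. Detected probes numbered 19183 to 20000 in FRG1 mice and 17957 to 19076 in WT mice. Pearson correlations of log2 values were 0.99 to 0.993 among FRG1 arrays, 0.982 to 0.991 among WT arrays and 0.966 to 0.98 between the groups. Of 8 skeletal muscle fibre markers, 7 had a probe and all 7 were retained, and their summed linear value was 123000 to 129000 in FRG1 mice and 133000 to 139000 in WT mice. The median log2 fold change of those 7, FRG1 minus WT, was -0.02. Actn3 and Myh4 had -0.79 and -0.45, and the others lay between -0.05 and 0.06.

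Myelin is a stack of Schwann cell membrane around an axon, held together by adhesion proteins and made of lipids that the cell synthesises in large amounts. MBP binds the cytoplasmic faces of the membrane and compacts them, PMP22 is a membrane protein of the compact sheath whose gene dosage underlies inherited demyelinating neuropathies, and MAG sits on the inner membrane facing the axon. In Schwann cells the zinc finger factor EGR2 works with the HMG-box factor SOX10 to switch on many of these genes. Mbp, Mag, Cnp and Mal are also genes of oligodendrocytes, which myelinate in the central nervous system and are not part of a limb muscle. In bulk muscle, fewer Schwann cells and less RNA per Schwann cell cannot be told apart.

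Because SOX10 and EGR2 are the known regulators of the sheath, promoters are shown with their matches to a motif of each factor family. They are those of 3 sheath members with a retained probe that was lowest in FRG1 Sample873, and of Ugt8a. Ugt8a was the gene whose profile over the mice lay nearest to that of Mbp. Each line is the first RefSeq window listed for the gene in assembly GRCm38.p6, from 250 bases before to 50 bases after the transcript start, read 5′ to 3′ along the gene's strand. Capitals mark GTGGGNG, a core of the Egr consensus, and ACAAAG, a core of the Sox HMG-box motif, each searched on both strands.
Mag promoter, chr7:30914814-30915113, strand -: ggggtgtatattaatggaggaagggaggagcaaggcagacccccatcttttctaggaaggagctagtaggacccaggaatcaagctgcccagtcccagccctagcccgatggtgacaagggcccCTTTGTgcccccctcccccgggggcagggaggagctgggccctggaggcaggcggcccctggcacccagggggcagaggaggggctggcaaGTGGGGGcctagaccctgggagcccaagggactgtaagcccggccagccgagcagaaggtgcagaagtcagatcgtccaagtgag
Pmp22 promoter, chr11:63128732-63129031, strand +: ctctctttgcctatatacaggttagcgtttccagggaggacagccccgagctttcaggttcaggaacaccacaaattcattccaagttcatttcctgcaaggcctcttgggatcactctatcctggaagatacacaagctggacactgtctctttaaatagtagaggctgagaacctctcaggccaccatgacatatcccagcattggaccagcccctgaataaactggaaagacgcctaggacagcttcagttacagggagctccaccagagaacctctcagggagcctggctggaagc
Mal promoter, chr2:127656646-127656945, strand -: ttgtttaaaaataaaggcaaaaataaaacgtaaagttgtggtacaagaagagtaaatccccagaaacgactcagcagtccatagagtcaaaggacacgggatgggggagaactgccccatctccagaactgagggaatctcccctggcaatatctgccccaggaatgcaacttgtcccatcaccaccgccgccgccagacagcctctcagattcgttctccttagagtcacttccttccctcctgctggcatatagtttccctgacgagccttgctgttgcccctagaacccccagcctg
Ugt8a promoter, chr3:125938603-125938902, strand -: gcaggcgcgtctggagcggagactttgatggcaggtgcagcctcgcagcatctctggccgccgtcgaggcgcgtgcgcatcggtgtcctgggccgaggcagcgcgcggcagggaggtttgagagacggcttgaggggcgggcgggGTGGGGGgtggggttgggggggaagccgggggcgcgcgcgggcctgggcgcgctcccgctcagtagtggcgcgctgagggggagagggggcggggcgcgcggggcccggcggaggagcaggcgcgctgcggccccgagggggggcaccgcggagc
The Mag window held 1 match to each motif, with the Sox match on the opposite strand, so that it reads CTTTGT in the line shown. The Ugt8a window held 1 Egr match and 0 Sox matches, and the Pmp22 and Mal windows held 0 of both. Over the 16 windows listed for 7 member genes, all but Mbp, 6 held the Egr motif and 3 the Sox motif, in 4 and 2 genes. Prx was among the genes with an Egr match. No Egr match overlapped a Sox match. Some windows of 1 gene overlap, so their matches are not separate, and the promoter of Mbp was not analysed here. Among all 32851 promoter windows of the same length, 31.6% held the Egr motif and 18.7% the Sox motif. A match describes these letters in this window and is no evidence of binding.

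None of the 11 retained probes of the Schwann cell and myelin genes passed the test between FRG1 and WT muscle (limma, Benjamini-Hochberg adjusted p between 0.169 and 0.859). For comparison, 13.8% of all retained probes passed, 7.1% as higher and 6.71% as lower in FRG1 muscle. Calls over all probes split into 1389 higher and 1313 lower, and into 1923 higher and 507 lower with median scaling, which raised the median of all probes by 0.13 log2 units. At an unadjusted p under 0.05 there were 2 member probes, 1 of Pmp22 and 1 of Mal, against 28.5% of all probes. The log2 fold change, FRG1 minus WT, was below 0 for 9 of the 11 probes and above 0 for 2, beside 53.2% of all probes below 0, and with median scaling Cnp and Mal ILMN_1224029 turned positive, at 0.06 and 0.11. Its median was -0.21 over the member probes and -0.02 over all retained probes. The groups did not overlap for 1 of the 11 probes, against 33.7% of all probes. Standard errors of the member probes lay between 0.13 and 0.35.

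**Figure D1:**
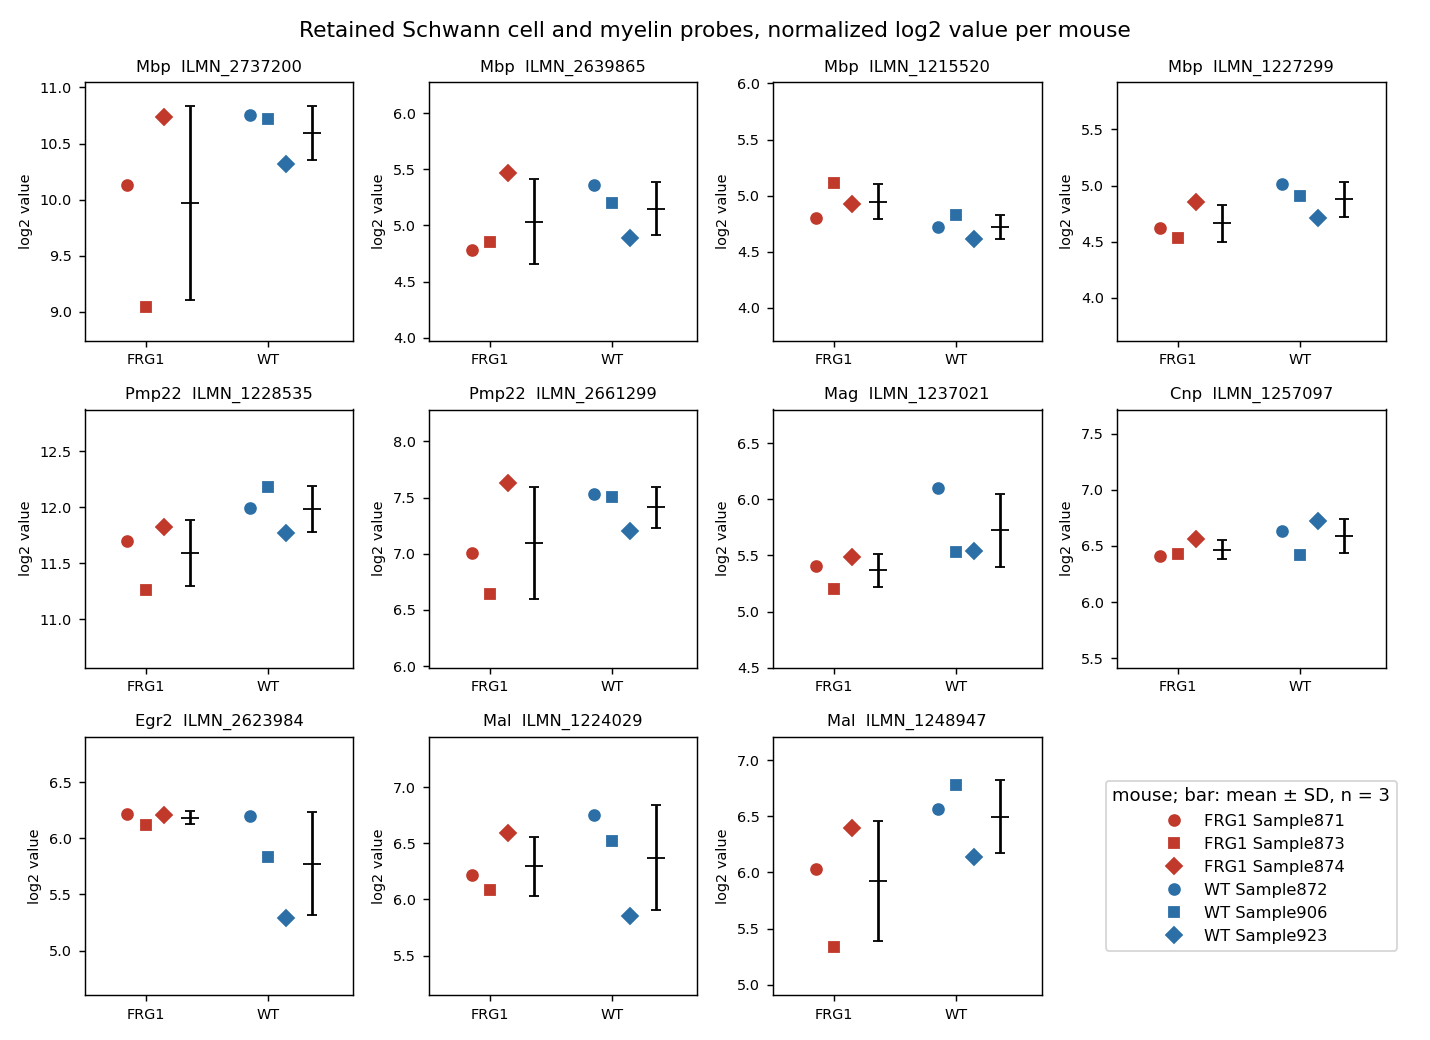
Normalized log2 value of each of the 11 retained probes in each mouse (vertical axis, the same span of log2 units in each panel), FRG1 mice in red on the left and WT mice in blue on the right, with bars for the mean ± SD (n = 3 each). The FRG1 square, Sample873, is the lowest point in 6 panels, and only the Mag panel shows groups that do not overlap.

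Mbp, the compaction protein of myelin, was read brightly by 1 probe, ILMN_2737200. Its log2 values were 10.13, 9.04 and 10.74 in FRG1 mice Sample871, Sample873 and Sample874, against 10.75, 10.72 and 10.32 in WT mice Sample872, Sample906 and Sample923. Sample873 stood well below the other FRG1 mice, while Sample874 was level with the higher WT mice, so the groups overlapped. The unnormalized signal of this probe was 1080, 618 and 1880 intensity units in those FRG1 mice, against 1880, 1570 and 1130 in the WT mice. The array with the lowest Mbp signal, that of Sample873, had the highest summed signal of the 6. The mean was 9.97 ± 0.86 in FRG1 and 10.6 ± 0.24 in WT muscle (SD, n = 3 each), a log2 fold change of -0.63 ± 0.35 (SE) with a 95% confidence interval from -1.4 to 0.14 (limma adjusted p = 0.27). Leaving out Sample873 brought the log2 fold change to -0.16 (limma adjusted p = 0.72), and leaving out Sample874 brought it to -1.02 (limma adjusted p = 0.0634).

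The other Mbp probes were dim and did not share one profile. ILMN_2639865, detected on 3 FRG1 and 2 WT arrays, had log2 values of 4.78, 4.85 and 5.47 in FRG1 mice, against 5.36, 5.2 and 4.89 in WT mice. Its log2 fold change was -0.11 ± 0.2 (SE), and the highest of its 6 values was in an FRG1 mouse, Sample874. ILMN_1215520 was detected on 3 FRG1 arrays and 1 WT array, with 4.8, 5.11 and 4.93 in FRG1 mice and 4.72, 4.83 and 4.61 in WT mice. Its log2 fold change of 0.23 ± 0.13 (SE) was of the opposite sign to the others, and Sample873 was here the highest mouse. ILMN_1227299, detected on 1 FRG1 and 2 WT arrays, gave 4.62, 4.53 and 4.85 in FRG1 mice and 5.01, 4.91 and 4.71 in WT mice. Its log2 fold change was -0.21 ± 0.14 (SE). With the 4 Mbp probes averaged before the fit, the log2 fold change of the gene was -0.18 (limma adjusted p = 0.49).

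Pmp22, the compact myelin protein that fibroblasts and other cells also make, had a pair of probes with similar profiles over the mice. ILMN_1228535 read 11.7, 11.26 and 11.82 in FRG1 mice Sample871, Sample873 and Sample874, against 11.99, 12.18 and 11.77 in WT mice Sample872, Sample906 and Sample923. Sample873 was lowest, and the only overlap was between FRG1 Sample874 and WT Sample923. The log2 fold change was -0.39 ± 0.17 (SE) with a 95% interval from -0.77 to -0.01, which did not pass after adjustment (limma adjusted p = 0.169). ILMN_2661299 read 7.01, 6.64 and 7.63 in FRG1 mice, against 7.53, 7.51 and 7.2 in WT mice. Sample873 was again the lowest mouse and Sample874 the highest. The log2 fold change was -0.32 ± 0.22 (SE; limma adjusted p = 0.392). Without Sample873 the values were -0.22 for the first probe and -0.09 for the second.

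Mag, the adhesion molecule of the inner sheath membrane, had the only retained member probe whose groups did not overlap. ILMN_1237021 read 5.41, 5.2 and 5.49 in FRG1 mice, against 6.1, 5.53 and 5.54 in WT mice. The gap between the highest FRG1 mouse, Sample874, and the lowest WT mouse, Sample906, was narrow, and WT Sample872 stood above all others. The log2 fold change was -0.36 ± 0.17 (SE), with a 95% interval from -0.74 to 0.03 (limma adjusted p = 0.208). The two-sided exact permutation test gave p = 0.1, the smallest that 3 mice against 3 can give. Groups that did not overlap, with FRG1 lower, were found in 17.7% of all retained probes. Without WT Sample872 the log2 fold change was -0.17 (limma adjusted p = 0.504). A second Mag probe, ILMN_1241209, was detected on 0 of 6 arrays, with a raw signal of 37 to 51.1 intensity units and a lowest detection p of 0.117.

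Cnp encodes the phosphodiesterase that keeps cytoplasmic channels open in myelin. Its probe ILMN_1257097 read 6.41, 6.43 and 6.56 in FRG1 mice, against 6.63, 6.42 and 6.72 in WT mice. All 6 mice lay within 0.31 log2 units, the smallest range of the 11 probes. The log2 fold change was -0.12 ± 0.13 (SE) with a 95% interval from -0.41 to 0.16 (limma adjusted p = 0.57).

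Mal encodes a proteolipid of myelin membrane rafts. ILMN_1248947 read 6.03, 5.34 and 6.4 in FRG1 mice Sample871, Sample873 and Sample874, against 6.57, 6.78 and 6.14 in WT mice Sample872, Sample906 and Sample923. Sample873 was far below the rest, and FRG1 Sample874 lay above WT Sample923. The log2 fold change was -0.58 ± 0.26 (SE) with a 95% interval from -1.15 to 0 (limma adjusted p = 0.172), and it was -0.28 without Sample873 (limma adjusted p = 0.494). ILMN_1224029 read 6.22, 6.08 and 6.59 in FRG1 mice, against 6.75, 6.52 and 5.85 in WT mice. Here WT Sample923 was the lowest mouse, and the log2 fold change was -0.08 ± 0.23 (SE; limma adjusted p = 0.859). The third Mal probe, ILMN_1252139, was detected on 0 of 6 arrays, at 37.9 to 42.7 intensity units and a lowest detection p of 0.334.

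S100b, a calcium-binding protein used as a Schwann cell marker, was not detected on any of the 6 arrays by its single probe, ILMN_2634742. The raw signal was 41.4 to 50.9 intensity units and the lowest detection p 0.0855, so no fold is given.

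Egr2, the regulator of the myelinating state, had a positive log2 fold change that did not pass. ILMN_2623984 read 6.22, 6.12 and 6.21 in FRG1 mice, against 6.2, 5.83 and 5.29 in WT mice. The FRG1 mice were almost level with each other and with WT Sample872, and the spread lay in the WT group, with Sample923 lowest. The mean was 6.18 ± 0.05 in FRG1 and 5.77 ± 0.46 in WT muscle (SD, n = 3 each), a log2 fold change of 0.41 ± 0.2 (SE; 95% interval -0.04 to 0.86; limma adjusted p = 0.217). Without WT Sample923 it was 0.17 (limma adjusted p = 0.507). Egr2 is also an early-response gene in muscle and immune cells.

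**Figure D2:**
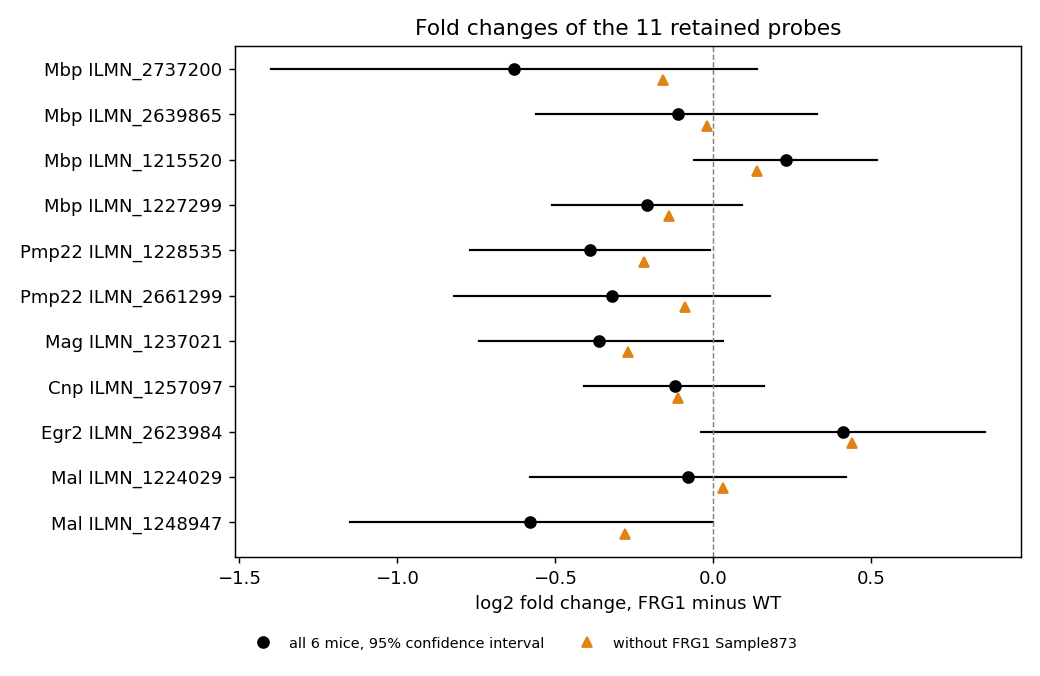
Log2 fold change, FRG1 minus WT, of each of the 11 retained probes (horizontal axis), with the 95% confidence interval from all 6 mice in black and the value without FRG1 Sample873 as an orange triangle. Mbp ILMN_2737200 lies at -0.63 with all mice and at -0.16 without Sample873, and Egr2 lies on the positive side at 0.41.

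The 3 FRG1 mice were not alike. Sample873 was the lowest of the 6 mice for 6 of the 11 member probes, namely 2 probes of Mbp, both of Pmp22, that of Mag and 1 of Mal, beside 15.7% of all retained probes. Centred on each probe's mean, the median deviation over the member probes was -0.14 in FRG1 Sample871, -0.25 in Sample873 and 0.19 in Sample874, against 0.27 in WT Sample872, 0.14 in Sample906 and -0.06 in Sample923. FRG1 Sample874 thus lay above 0, as WT Sample872 and Sample906 did, and WT Sample923 lay just below it. Over all retained probes the median deviation of each mouse lay between -0.01 and 0.04, and that of Sample873 was -0.01. The range of Mbp ILMN_2737200 over the 6 mice, 1.71 log2 units, was the widest of the members, followed by 1.44 for Mal ILMN_1248947.

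The same mouse was low for other genes of the sheath. Of 23 further myelin sheath genes, 20 had a probe and 16 had a retained probe, the brightest of which stood for the gene. Sample873 was the lowest of the 6 mice for 11 of those 16, beside 1751 of all 10287 genes. The median deviation over the 16 was -0.07 in FRG1 Sample871, -0.29 in Sample873 and 0.06 in Sample874, against 0.23 in WT Sample872, 0.03 in Sample906 and 0.12 in Sample923. Ugt8a, which makes the galactolipids of myelin, read 5.88, 4.84 and 6.32 in FRG1 mice, against 6.35, 6.25 and 6.14 in WT mice. Fa2h, which hydroxylates the fatty acids of those lipids, read 6.98, 6.37 and 7.72 in FRG1 mice, against 7.7, 7.41 and 7.41 in WT mice. For both genes FRG1 Sample873 was lowest and FRG1 Sample874 was at the level of the highest WT mouse. A second, dimmer Ugt8a probe, ILMN_2584359, was also lowest in Sample873, at 4.9. It ranged over only 0.42 log2 units, against 1.51 for the first, and its log2 fold change was -0.12 (limma adjusted p = 0.632).

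**Figure D3:**
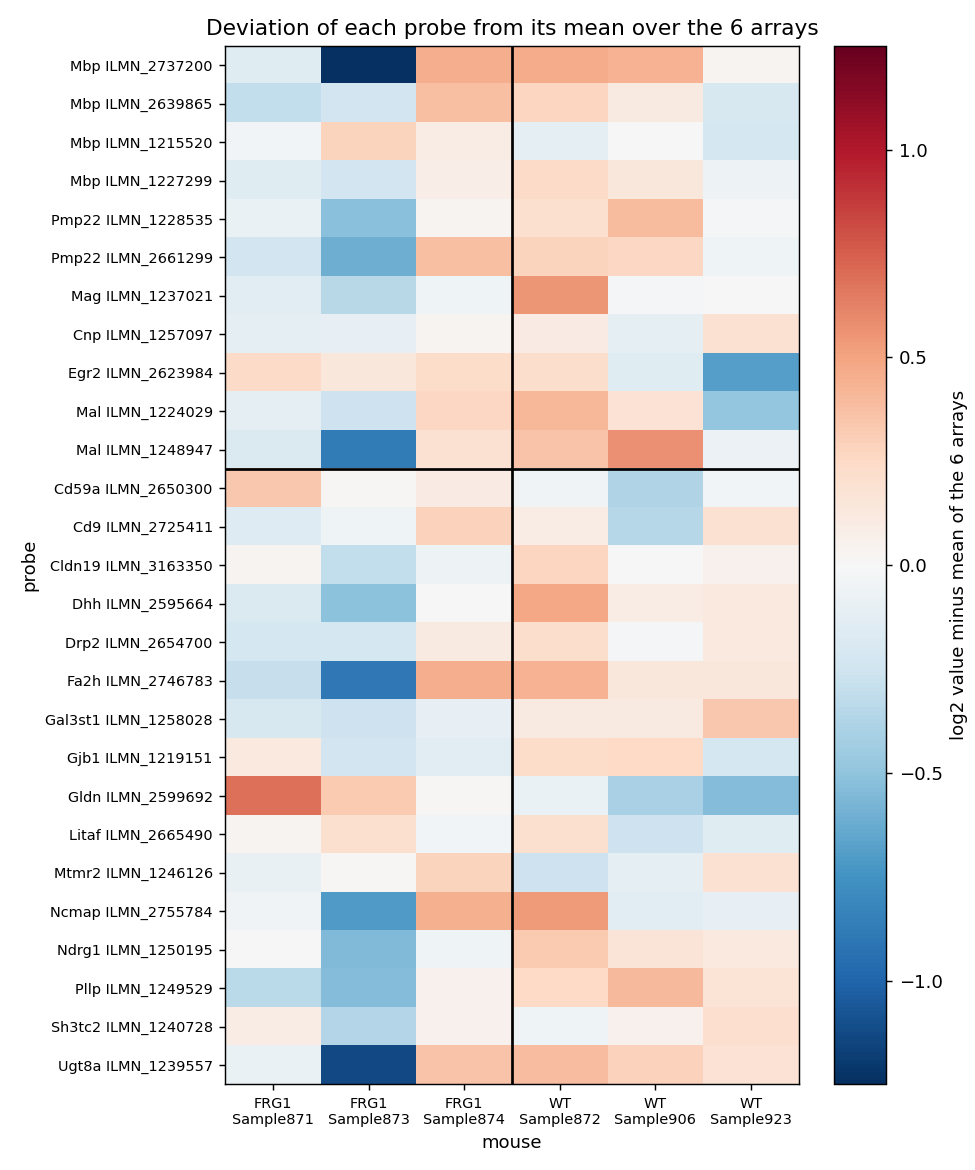
Deviation of each probe's log2 value from its mean over the 6 mice (colour, blue low and red high), with FRG1 mice in the 3 left columns and WT mice in the 3 right columns, the 11 member probes above the line and 16 other sheath genes below it. The column of FRG1 Sample873 is the darkest blue, down to -1.24 for Mbp ILMN_2737200, while Gldn is high in FRG1 Sample871 and Sample873.

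A search of 10281 genes for the profiles nearest to that of Mbp ILMN_2737200, by the root mean square difference of centred log2 values over the 6 mice, returned Ugt8a at 0.115, Vat1l at 0.138, Fa2h at 0.197, Cldn19 at 0.234 and Aatk at 0.262. Of these, Ugt8a, Fa2h and Cldn19, a claudin of Schwann cell tight junctions, were on the list of sheath genes. Vat1l and Aatk, a kinase known from neurons, were on none of the Schwann cell lists. The Cldn19 probe in this search, ILMN_1231619, was detected on 2 FRG1 and 3 WT arrays, and its values were 5.29, 4.62 and 5.89 in FRG1 mice, against 5.97, 5.56 and 5.75 in WT mice. The brighter Cldn19 probe, ILMN_3163350, read 5.56, 5.21 and 5.46 in FRG1 mice, against 5.79, 5.53 and 5.58 in WT mice. In the search each gene was ranked by whichever of its retained probes lay nearest to Mbp ILMN_2737200. Of 35 sheath, transcription factor and receptor genes searched, 9 ranked within the first 100 of the 10281 genes and 26 ranked from 738 to 9950. The median rank over the 35 was 1863 of 10281. Besides the 3 named, those within 100 were Ncmap at 12, Pllp at 21, Sox10 at 42, Ndrg1 at 45, Dhh at 47 and the laminin receptor subunit Itgb4 at 77. Among the rest, Sh3tc2 ranked 738, Drp2 747, Gjb1 1249, Cd9 5351, Litaf 8427 and Gldn 9950. All values come from the same 6 arrays, and the likeness rests on Sample873: without that mouse, 0 of Ugt8a, Fa2h and Cldn19 were among the nearest 5. In the authors' processed values 1 of the 3 was among them, and 1 was with the stricter detection filter. That filter required a detection p under 0.01 on all 6 arrays, which left no probe of Cldn19 or Ugt8a in the search. On the array of Sample873 those probes read 5.21 or less, below Mal ILMN_1248947 at 5.34, whose detection p there was 0.0112.

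**Figure D4:**
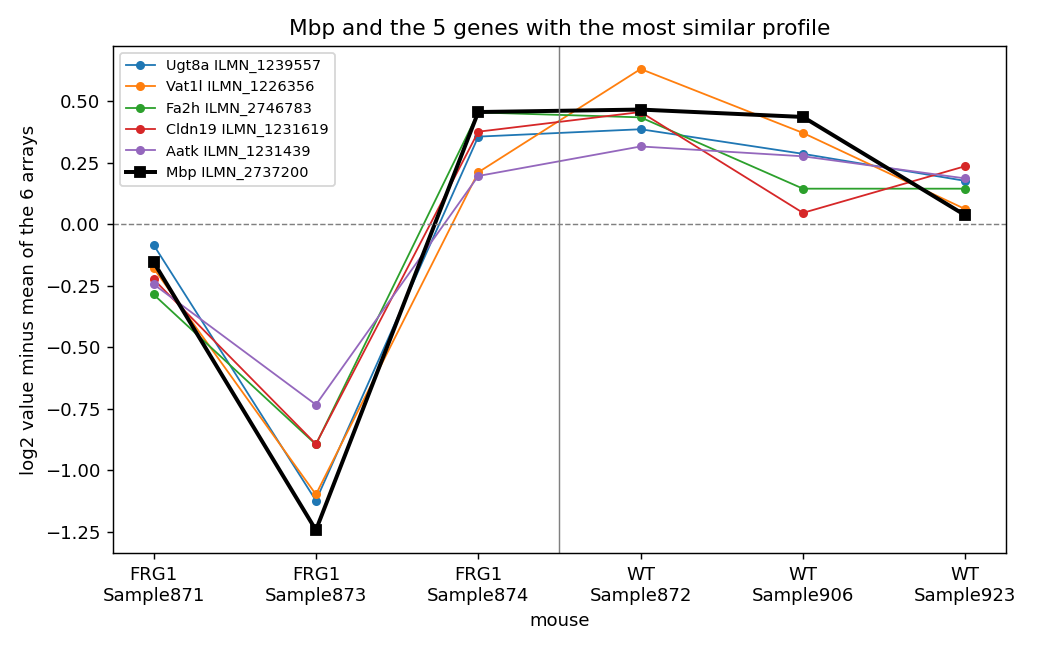
Centred log2 value in each mouse (vertical axis) of Mbp ILMN_2737200 in black and of the 5 genes nearest to it in colour, with FRG1 mice on the left and WT mice on the right. All 6 lines dip at FRG1 Sample873 and lie above their mean at FRG1 Sample874.

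Between the groups, 1 of the 16 other sheath genes rose and 1 fell, beside 14.8% of all 10287 genes called, 7.53% as higher and 7.23% as lower. Their log2 fold changes were below 0 for 11 of 16, with a median of -0.21, against 54.1% of all genes and a median of -0.03. Gldn, gliomedin, which Schwann cells secrete at the nodes of Ranvier, rose. It read 6.76, 6.4 and 6.08 in FRG1 mice, against 5.99, 5.66 and 5.53 in WT mice, a log2 fold change of 0.69 ± 0.19 (SE; limma adjusted p = 0.0363). Pllp, plasmolipin, a membrane protein of myelin, fell, and it was detected on 1 FRG1 array and 3 WT arrays. It read 4.7, 4.49 and 5.09 in FRG1 mice, against 5.28, 5.44 and 5.21 in WT mice, a log2 fold change of -0.55 ± 0.16 (SE; limma adjusted p = 0.0498). Both calls were lost when some mice were left out, a step that took the calls over all probes from 2702 to between 1334 and 2669. That of Gldn was lost without FRG1 Sample871 or Sample873 and without WT Sample906 or Sample923 (limma adjusted p = 0.134, 0.109, 0.0985 and 0.0678), with log2 fold changes there of 0.52, 0.69, 0.66 and 0.59. That of Pllp was lost without FRG1 Sample871 or Sample873 and without WT Sample872 or Sample906 (limma adjusted p = 0.155, 0.19, 0.0958 and 0.135), with log2 fold changes there of -0.52, -0.41, -0.57 and -0.49. It was also lost with cyclic loess and with median scaling. A second Pllp probe was detected on 0 of 6 arrays.

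Among 9 measured Schwann cell transcription factors, 0 passed in limma, against 14.8% of all genes. An unadjusted p under 0.05 was found for 3 of the 9, and for 30.5% of all genes. Sox10, the lineage factor, read 6.53, 6.14 and 6.63 in FRG1 mice, against 7.03, 6.82 and 6.7 in WT mice. Its groups did not overlap, and its log2 fold change was -0.42 ± 0.16 (SE; limma adjusted p = 0.112). Nfatc4, a calcineurin-dependent factor of myelination, had a log2 fold change of -0.43 ± 0.17 (SE; limma adjusted p = 0.126). Hdac2, the third gene with an unadjusted p under 0.05, went the other way, with 0.29 ± 0.12 (SE; limma adjusted p = 0.141). The median of the 9 factors was 0.03, and 3 of the 9 were below 0, beside 54.1% of all genes. Of 10 measured receptors and signals that guide myelination, 0 passed and 1 had an unadjusted p under 0.05, beside the same shares of all genes. Itga6, a laminin receptor subunit, had a log2 fold change of -0.3 (limma adjusted p = 0.124), and Lamc1, a laminin chain, one of 0.22 (limma adjusted p = 0.331). The other retained Itga6 probes gave 0.06, -0.12 and 0.01. With the Itga6 probes averaged, the log2 fold change was -0.09 (limma adjusted p = 0.757).

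Of 9 measured genes of immature, non-myelinating or repair Schwann cells, 1 rose and 1 fell, beside 7.53% and 7.23% of all genes. Ncam1 encodes an adhesion molecule that denervated and regenerating muscle fibres also express. Its probe ILMN_2722864 averaged 8.52 ± 0.19 in FRG1 and 6.94 ± 0.11 in WT muscle (SD, n = 3 each), a log2 fold change of 1.59 ± 0.14 (SE; limma adjusted p = 0.000111). Of its 4 retained probes this was the only one to pass, and the others ran from -0.28 to 0.22. With the 4 averaged, the log2 fold change was 0.33 (limma adjusted p = 0.102). Gdnf, a neurotrophic factor for motor neurons that muscle also makes, averaged 5.89 ± 0.1 in FRG1 and 6.58 ± 0.3 in WT muscle (SD, n = 3 each), a log2 fold change of -0.69 ± 0.16 (SE; limma adjusted p = 0.02). Its call was lost without Sample871, Sample873, Sample874 or Sample872, with adjusted p in limma of 0.076, 0.0518, 0.0637 and 0.0661, while its log2 fold change there was -0.67, -0.74, -0.65 and -0.59. The repair markers Shh, Olig1, Artn, Bdnf, Gap43 and Sox2 had no retained probe.

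Few axon genes were measured. Of 10 axon and neuron genes, 8 had a probe and 3 a retained one, and the neurofilaments Nefl, Nefm and Nefh had none. Uchl1, a ubiquitin hydrolase abundant in neurons, rose, with 8.32, 8.29 and 7.81 in FRG1 mice, against 6.04, 5.82 and 5.93 in WT mice. Its log2 fold change was 2.21 ± 0.16 (SE; limma adjusted p = 3.63e-05). The other measured members, Stmn2 and Tubb3, did not pass, with log2 fold changes of -0.41 and -0.34. Of 14 measured sterol and lipid synthesis genes, which myelin formation draws on but which every cell uses, 1 rose, beside 7.53% of all genes. Mvd, a mevalonate pathway decarboxylase, averaged 6.32 ± 0.19 in FRG1 and 4.85 ± 0.08 in WT muscle (SD, n = 3 each), a log2 fold change of 1.46 ± 0.13 (SE; limma adjusted p = 0.000162). It was detected on 3 FRG1 and 2 WT arrays. The median of that list was -0.08. Dimmer probes of Lss, ILMN_2614161, and Srebf2, ILMN_1223598, also passed as higher, at 0.49 and 0.5 (limma adjusted p = 0.0288 and 0.0342). That of Lss was detected on 3 FRG1 and 0 WT arrays. The probes that stood for Lss and Srebf2 gave -0.05 and -0.31, and another Srebf2 probe gave -0.41.

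Markers of the other cells in the muscle moved between the groups, and their part in the values above was not tested. Over all genes 14.8% were called, 7.53% as higher and 7.23% as lower in FRG1 muscle. Of 9 measured macrophage markers, 8 rose, and their summed linear value was 3120 to 3990 in FRG1 mice and 1930 to 2220 in WT mice. Lyz2, lysozyme, had a log2 fold change of 1.06 ± 0.15 and Ctss, cathepsin S, one of 1.03 ± 0.14 (SE; limma adjusted p = 0.00143 and 0.0013). Fcer1g, an Fc receptor chain, and C1qa, a complement chain, had log2 fold changes of 0.85 and 0.64. All 8 endothelial markers were measured and 3 fell, with sums of 2550 to 3140 in FRG1 mice and 3590 to 4100 in WT mice. Sample873 was the lowest mouse for 5 of the 8, beside 1751 of all 10287 genes. Those that fell were the junction genes Cldn5 and Cdh5, with log2 fold changes of -0.76 and -0.5, and Eng, endoglin, with -0.57. Of 7 measured tendon and cartilage markers, 5 fell, with sums of 3070 to 4000 in FRG1 mice and 5590 to 6700 in WT mice, and Sample873 was the lowest mouse for 0 of the 7. Kera, Tnmd, Fmod and Chad, matrix and tendon cell genes, had log2 fold changes of -1.09, -0.89, -0.77 and -0.67. Among 7 fibroblast markers, whose cells also express Pmp22, Mfap5 rose and Col1a1 fell, with log2 fold changes of 0.86 and -0.62 and sums of 20500 to 25200 in FRG1 mice and 23100 to 27300 in WT mice. The median log2 fold change of the fibroblast markers was 0.06, and 2 of the 7 were below 0. Of 7 measured muscle fibre markers, 2 fell, Actn3 by 0.79 and Myh4 by 0.45 on the log2 scale.

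Most oligodendrocyte markers were at background. Of 8, Mog, Mobp, Opalin, Olig2, Ermn and Aspa had no retained probe. Nkx6-2 and Cldn11 were detected on all 6 arrays and did not pass, with log2 fold changes of -0.47 and -0.39 (limma adjusted p = 0.052 and 0.161), though Nkx6-2 passed under 5 of 15 alternatives. A second retained Nkx6-2 probe, ILMN_2635578, had a log2 fold change of -0.02 (limma adjusted p = 0.952). With the retained Nkx6-2 probes averaged, that of the gene was -0.25 (limma adjusted p = 0.219). The sum of Nkx6-2 and Cldn11, by the brightest probe of each, was 521 to 603 in FRG1 mice and 656 to 860 in WT mice. None of the 6 T cell markers was measured, 4 of them having a probe.

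**Figure D5:**
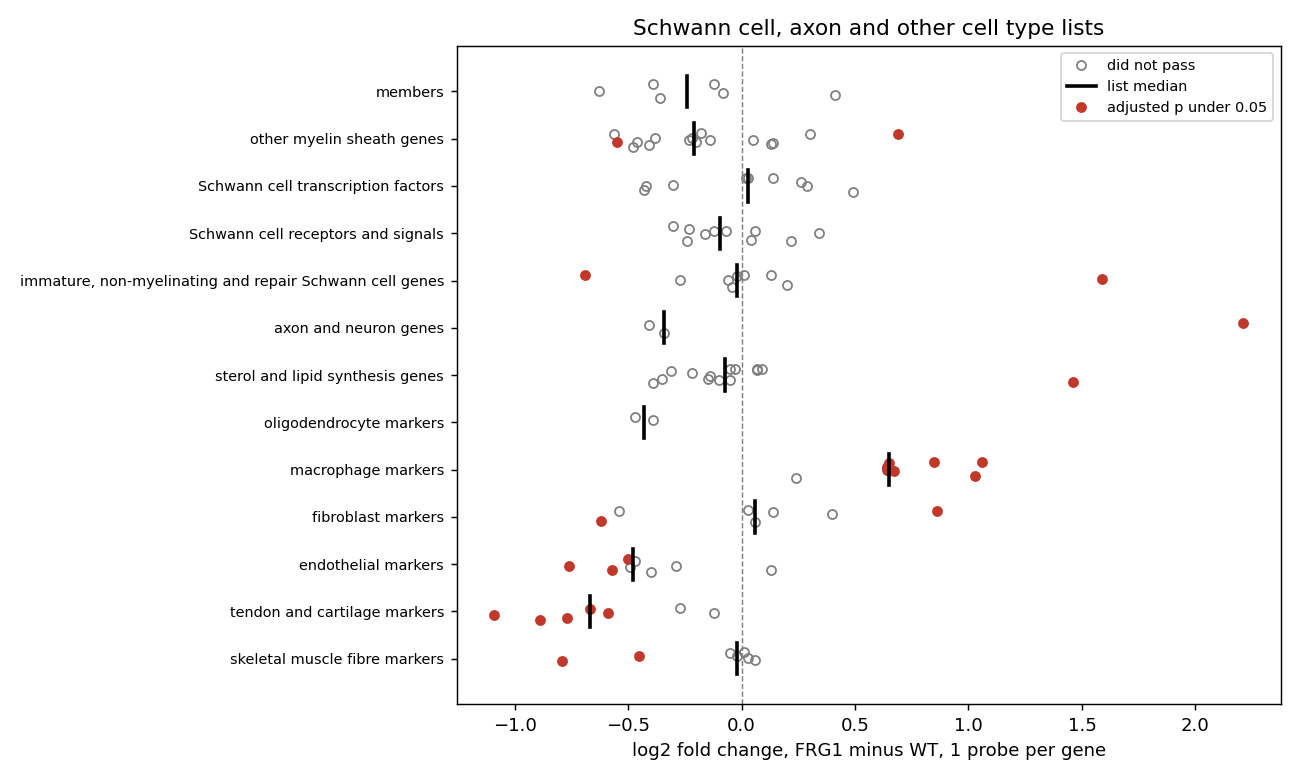
Log2 fold change, FRG1 minus WT, of every measured gene of each list (horizontal axis, 1 probe per gene), with genes past the threshold as filled red points and list medians as black bars. The members and the other sheath genes centre near -0.2 with 2 calls between them, both in the sheath list, while 8 macrophage markers lie to the right and 5 tendon and cartilage markers to the left.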

How the data were processed

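Biotin-labelled cRNA from vastus lateralis of 3 FRG1 and 3 WT mice was measured, 1 Illumina array each. Per the file headers, the authors deposited for each of 46632 probes an unnormalized signal intensity and a detection p-value, and a second table of processed intensity. Per the submitters' processing notes lumi was used, with its version and settings not given in the sources used here. The processed values keep the rank order of the signals, 33.7% to 33.9% lie below 0 and column medians are 5.07 to 5.15. They lie on a linear scale whose subtracted background is unknown, and they served as an alternative only.

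The neqc function of limma 3.58.1 (R 4.3.3) corrected the background with an offset of 16, inferring negative controls from detection p, quantile normalized the arrays and gave log2 values. The offset understates fold changes of dim probes. Probes with detection p under 0.05 on at least 3 of 6 arrays, 19563 in number, were fitted with lmFit and eBayes, with two-sided p adjusted by Benjamini-Hochberg over all of them and called at 0.05. Fold changes are FRG1 minus WT on the log2 scale. Linear values are 2 to the power of the log2 value. The number of arrays limits the precision. The files name no chip or scan batch.

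Probes were named from the platform annotation: 29976 had 1 symbol, 10 several and 16646 none, and 29921 were matched by Entrez gene to RefSeq GRCm38.p6, the assembly of the promoter windows. The probe with the highest mean stood for a gene of a list. All member probes are given. Of each other list, up to 4 genes past the threshold with the smallest p are named, or the 2 with the smallest p where none passed, plus the 5 genes with the profile nearest to the member probe of widest range. Further names were chosen after their values were seen. The members and lists were chosen with earlier results of these data known. The fit was also tested, after the main fit, on data simulated from the normalized values.

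Alternatives were other normalizations, background settings, detection filters, the variance model, averaged probes, the authors' values and leaving out each mouse.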

Additional observations from a re-analysis of the deposited data

How the results depend on the processing

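No paired analysis was run because the labels give no pairing of FRG1 with WT mice. No member probe passed under any of the 15 alternatives, and the median member log2 fold change ran from -0.36 to -0.09 (-0.34 to -0.11 with 1 mouse left out). Of 154 values of member probes under alternatives, 149 kept their sign and 5 turned: with median scaling Cnp was 0.06 and Mal ILMN_1224029 0.11, and Mbp ILMN_2639865 ran from -0.33 (without FRG1 Sample874) to 0.01 (without FRG1 Sample871). Mal ILMN_1224029 was 0.03 without FRG1 Sample873 and 0.11 without WT Sample872. Median scaling moved the median of all probes by 0.13, to 0.1. It split calls into 1923 higher and 507 lower in FRG1 muscle (79.1% higher), against 51.4% higher in the setting reported, and the causes of these changes were not tested.

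The number of member probes with groups that did not overlap was 1 as reported, against 33.7% of all probes. It was 0 with cyclic loess and 2 with median scaling. With no detection filter it was 2 of 14, and with detection p under 0.01 on all 6 arrays it was 0 of 5. With 1 mouse left out it was 2 to 7, where fewer mice make such a gap easier. The share over all probes was not computed under these alternatives, so the counts cannot be set beside it. Of 44 measured genes of the other Schwann cell lists, 4 passed as reported, beside 14.8% of all genes. With median scaling 2 passed, beside 2430 of 19563 probes, and in the authors' processed values 1 passed. With no filter 1 of 62 passed, beside 2102 of 46632 probes. With the stricter filter 2 of 27 passed, beside 2241 of 11543 probes. With 1 mouse left out 1 to 4 passed. Of all probes 2702 passed, against 1616 in the authors' values, 1699 of 10287 genes with probes averaged, and 1334 (without FRG1 Sample871) to 2669 (without WT Sample923) with 1 mouse left out; without FRG1 Sample873 it was 1345. Sample873 remained the lowest mouse for 6 or more member probes except with probes averaged (4 of 6 genes) and with the stricter filter (3 of 5), and for 10 to 12 of the other sheath genes except with the stricter filter (4 of 8). The calls of Uchl1 and Mvd held under every alternative that kept their probes, Gldn lost its call in 6 of 14, Pllp in 10 of 14, Gdnf in 7 of 15, Ncam1 in 1 of 15, Myh4 in 8 of 15, Col1a1 in 9 of 15, Cdh5, Cldn5 and Eng each in 7 of 15, Kera, Chad and Mfap5 each in 5 of 15, and Fmod in 4 of 15. Those of Actn3, C1qa, Ctss, Fcer1g, Lyz2 and Tnmd held in all that kept their probes. Dim probes near background limit what can be read of Mbp ILMN_1215520 and ILMN_1227299, Mag and Pllp.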
